A study of Drosophila melanogaster with 34 samples.

Results

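roX1 and roX2 are the noncoding RNAs that mark male dosage compensation, and their summed level split the late *scrib* mutant wing disc tumors into separate sets. The 8 bulk RNA-seq libraries of *scrib* tumors at 10 and 12 days after egg laying (AEL), of 34 libraries in the series, were classed by the sum of roX1 and roX2 in CPM (read counts scaled to library size and a normalization factor). A sum of at least 500 CPM made a tumor roX-high, which held for 3 libraries, and a smaller sum made it roX-low, which held for the other 5. The classes come from these measured values and not from the labels, which give no sex. Whether roX-high tumors came from more male larvae is an inference that no label tests.

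In male flies the MSL complex binds the single X chromosome and raises the transcription of its genes to match the female level. The complex holds the proteins MSL1, MSL2, MSL3, MLE and MOF and one of the roX RNAs, which are partly redundant with each other. In females Sex-lethal (Sxl) blocks the translation of *msl-2*, so that the complex does not form and the roX RNAs are not stabilized. Sxl also directs the splicing of *tra*, and Tra and Tra2 direct the splicing of *dsx*, whose male and female proteins pattern sex-specific tissue.

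The roX-high tumors were replicate 4 at 10 days and replicates 1 and 4 at 12 days. The roX-low tumors were replicates 1, 2 and 3 at 10 days and replicates 2 and 3 at 12 days. All of them carried the *scrib* loss-of-function allele *scrib1* homozygously on an *FRT82B* chromosome, so no control disc entered the class comparison. The other 26 libraries were *scrib* tumors at 4, 5, 6, 8 and 14 days and control *FRT82B* discs at 4 and 5 days, with 3 or 4 replicates in each group. RNA was extracted from dissected wing discs, and the number of discs per library is not given in the sources used here. The authors call the libraries of each time point biological replicates, while the labels name no separate cultures. The p-values measure the spread between these libraries, which may in part be technical. Depth in the 8 tumors ran from 19602820 to 21293019 reads assigned to genes, and each of the 14 listed wing disc markers averaged 1 CPM or more in them. At this depth 3 reads, taken as the least that differs from 0, came to 0.140 to 0.152 CPM.

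The roX1 gene lies on X (BDGP6, 3857230 to 3862697, minus strand), where it overlaps *ec* on the other strand, and roX2 also lies on X (11579065 to 11580432, plus strand), where the annotation has no other gene. In roX-high tumors roX1 stood at 733 CPM in replicate 4 at 10 days and at 924 and 738 CPM in replicates 1 and 4 at 12 days. In roX-low tumors it stood at 405, 55.7 and 328 CPM in replicates 1 to 3 at 10 days and at 330 and 334 CPM in replicates 2 and 3 at 12 days. roX2 was scarcer on the CPM scale, with 50.4, 65.5 and 45.1 CPM in the same order of roX-high tumors against 27.8, 4.30, 25.8, 17.7 and 18.3 CPM in roX-low tumors. Since these values chose the classes, they are a description, and their difference between the classes was not tested. They were only checked for a library that stands apart within its age, as given at the end.

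Replicate 2 at 10 days was far below every other library of the series, with a roX sum of 59.97 CPM. The 2 roX-high tumors nearest to the threshold had sums of 784 CPM each, and the nearest roX-low tumor had 433 CPM. Ages other than 10 and 12 days did not straddle 500 CPM. Sums ran from 253 to 319 CPM in control discs at 4 days and from 278 to 362 CPM at 5 days. In tumors they ran from 208 to 258 CPM at 4 days, 259 to 284 CPM at 5 days, 225 to 280 CPM at 6 days and 192 to 391 CPM at 8 days, and at 14 days all 4 libraries were over the threshold, at 692 to 1084 CPM. The spread among replicates was thus widest at 10 and 12 days, with SDs of 298 and 321 CPM (n = 4 each), against 25.4 CPM in tumors at 4 days (n = 4).

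**Figure D1:**
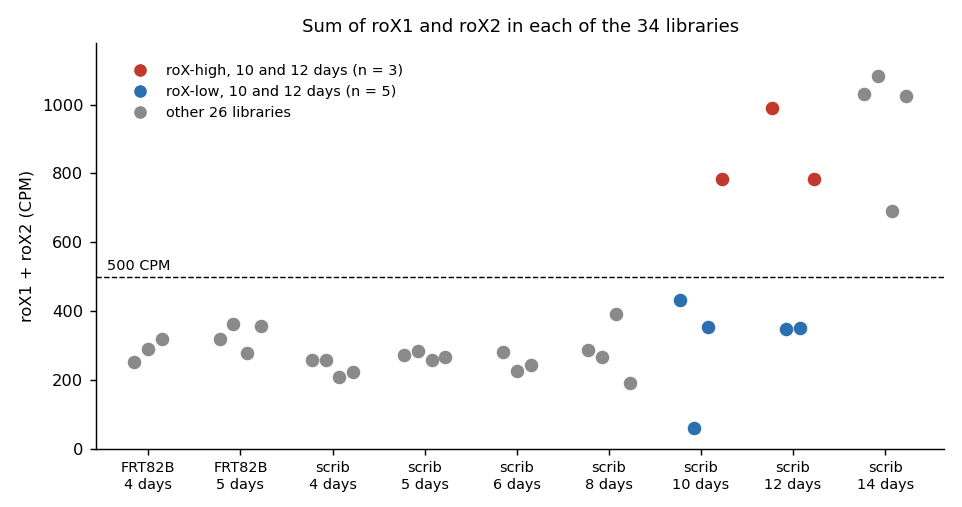
Summed CPM of roX1 and roX2 (y axis) in each library, grouped by genotype and age (x axis). Each point is 1 library, and the dashed line marks the 500 CPM that separate the 3 roX-high tumors from the 5 roX-low tumors at 10 and 12 days. The lowest point of all, 59.97 CPM, is a 10-day tumor.

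The classes were compared with limma on log2(CPM + 1) with age as a covariate, over the 7783 genes that averaged 1 CPM or more in these tumors, roX1 and roX2 left out. After Benjamini-Hochberg adjustment no gene passed 0.05 (0%), and edgeR's quasi-likelihood test on reads recovered from the CPM also called 0. At an unadjusted p under 0.05, 1137 genes differed (14.6%), of which 560 were higher in roX-high tumors (7.2%) and 577 lower (7.41%), and edgeR had 1134 such genes. DESeq2 on the same reads called 123 of the 7783 genes, 41 of them among the 1331 X-linked ones. Among the genes described below it called *mei-P26* (adjusted p = 1.6e-05), *Lsd-2* (3.5e-04), *RpL34a* and *RpL39* (0.0014 each), *ade5* (0.0055) and *vn* (0.033). It also called *RpL41* (0.0019), *RpS14b* (0.0078), *hep* (0.019), *CycB* (0.023) and *dup* (0.041). The DESeq2 filter on low means gave most of the 7783 genes no adjusted p, so DESeq2 neither called these genes nor left them uncalled. Among them were *dsx*, *tra*, *CG6191*, *CG42492*, *Adk1*, *upd1*, *Treh*, *cac* and *Optix*. The roX-high range lay wholly above the roX-low range for 320 genes (4.11%) and wholly below it for 292 genes (3.75%), 7.86% of genes together. Values for single genes below are therefore given as levels and differences, and the unadjusted counts of gene groups are read against these shares.

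These counts rested in part on replicate 1 at 12 days, the tumor with the highest roX sum of the 8. Without it 557 genes had an unadjusted p under 0.05, and without the roX-low replicates 2 and 3 at 12 days there were 719 and 745. The share of all genes lower in roX-high tumors was then 3.56%, 4.73% and 4.09%, and that of higher genes 3.595%, 4.49% and 5.46%. Without replicate 4 at 10 days these shares were 11.3% and 8.32%, and without replicate 4 at 12 days 8.81% and 9.07%. A fit on log2 of the roX sum itself, again with age, called 3 genes (0.0385%), *msl-2*, *cac* and *Optix*, and gave 494 genes with an unadjusted p under 0.05 (6.35%), with a positive slope for 253 (3.25%) and a negative one for 241 (3.1%). Without replicate 2 at 10 days, the tumor with the lowest roX sum, this fit called 0 genes by limma, with 1593 at an unadjusted p under 0.05.

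*msl-2* on 2L (3462218 to 3466112), which encodes the male-specific protein subunit of the MSL complex, had the lowest p of all genes in that fit. It had 114.7 CPM in the roX-high tumor at 10 days and 99.96 and 97.7 CPM in those at 12 days, against 73.5, 33.7 and 72.6 CPM in the roX-low tumors at 10 days and 70.7 and 65.7 CPM in those at 12 days. The classes did not overlap, and the lowest value belonged to replicate 2 at 10 days, which also had the least roX. The mean was 104 ± 9.23 CPM in roX-high tumors and 63.3 ± 16.8 CPM in roX-low tumors (SD, n = 3 and 5). The log2 fold change was 0.73 ± 0.24 (SE) with a limma adjusted p of 0.26, and the exact permutation test of the class within age gave p = 0.0833 (two-sided, 24 arrangements, smallest possible p 0.0417). Leaving out replicate 2 at 10 days brought the adjusted p to 0.044 at a log2 fold change of 0.57.

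On the continuous scale *msl-2* rose by 0.44 ± 0.03 (SE) log2 units per doubling of the roX sum (limma adjusted p = 0.0014). The slope stayed between 0.40 and 0.45 when any 1 of the 8 libraries was left out, and it lost the call only without replicate 2 at 10 days (0.45, adjusted p = 0.092). The 26 libraries that had no part in the classes gave a slope of 0.42 ± 0.11 (SE) within genotype and age groups. Its limma p was 9.6e-04 before adjustment and 0.998 after adjustment over all 7980 genes tested there. A permutation test of this single gene within the 7 groups gave p = 0.00759 (two-sided, 100000 resamples), and the slope was positive in 5 of the 7 groups. Without the 14-day tumors the slope was 0.28, with an unadjusted limma p of 0.031, and it was the lowest of the values obtained by leaving out 1 group. At 14 days *msl-2* stood at 75.8 to 116 CPM, lowest in the library with the least roX of that age.

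**Figure D2:**
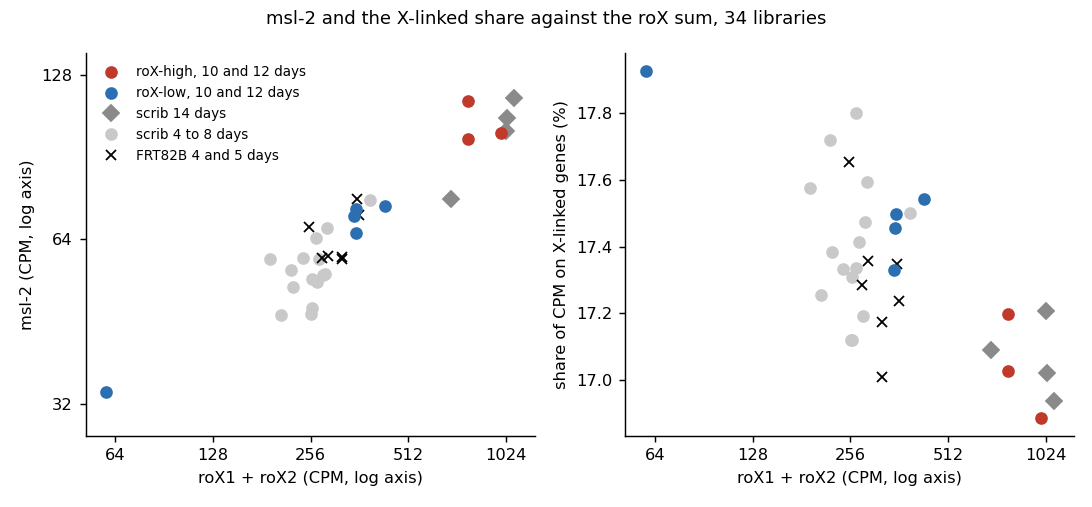
*msl-2* in CPM (left, log axis) and the percent of CPM on X-linked genes (right) against the summed CPM of roX1 and roX2 (log axis), 1 point per library. Going to higher roX, *msl-2* is higher and the X-linked share lower in the 10-day and 12-day tumors, with *msl-2* between 33.7 and 114.7 CPM and the share between 16.89 and 17.93%. The roX genes themselves are left out of the X-linked share.

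The other members of the complex differed little between the classes. *msl-3*, which encodes a chromodomain subunit, had 55.8, 53.3 and 53.5 CPM in roX-high tumors against 48.3, 45.4, 49.7, 51.9 and 51.1 CPM in roX-low tumors, and *mof*, the X-linked gene of the histone H4 acetyltransferase, had 47.2, 47.2 and 45.8 CPM against 42.2, 38.7, 45.05, 44.2 and 43.6 CPM. For both the classes did not overlap, yet the log2 fold changes were only 0.12 each, with limma adjusted p of 0.37 and 0.42. Over the 26 remaining libraries *msl-3* had a slope of 0.21 per doubling of roX, among the 158 positive slopes below an unadjusted limma threshold of 0.05 there (1.98%), and *mof* had a slope of 0.16, which was not among them. *msl-1*, the scaffold, averaged 70.0 CPM in roX-high and 71.9 CPM in roX-low tumors, and *mle*, the RNA helicase, 90.1 and 90.6 CPM. *Clamp*, a zinc finger protein that brings the complex to the X, averaged 149 and 145 CPM, the H3 kinase gene *JIL-1* 101 and 109 CPM, and *Top2* 559 and 588 CPM. Of the 8 listed dosage compensation genes besides the roX genes, 1 (*msl-2*) was higher at an unadjusted p under 0.05 and 0 were lower. Over all genes these shares were 7.2% and 7.41%. Without replicate 4 at 10 days 0 were higher and 1 lower (against 8.32% and 11.3% of all genes), and *msl-2* then had a log2 fold change of 0.53.

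Among the genes of sex determination, the values leaned the other way. *dsx* had the second lowest p of all genes in the class fit: 20.01, 16.5 and 17.8 CPM in roX-high tumors against 26.9, 29.8, 26.3, 30.1 and 30.2 CPM in roX-low tumors. All 3 roX-high values were below all 5 roX-low values, with means of 18.1 ± 1.77 and 28.7 ± 1.87 CPM (SD) and a log2 fold change of -0.64 ± 0.09 (SE). The limma p was 3.0e-05 before and 0.12 after adjustment, and the exact permutation test gave p = 0.0417, the smallest it can give. Without replicate 4 at 10 days, or without replicate 4 at 12 days, *dsx* passed at adjusted p of 0.031 and 0.049. Its slope in the other libraries was -0.30 per doubling of roX, with an unadjusted limma p of 0.0116. The values are sums over transcripts, and the male and female forms of *dsx*, *tra*, *Sxl* or *fru* cannot be told apart in them. *dsx* overlaps *lds*, and reads were counted without regard to strand.

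*tra*, the splicing factor that is functional in females, had 17.5, 19.04 and 17.5 CPM in roX-high tumors against 22.1, 25.5, 22.3, 24.1 and 22.2 CPM in roX-low tumors. These ranges did not overlap, with a log2 fold change of -0.35 ± 0.08 (SE) and a limma adjusted p of 0.25, and *tra* overlaps *l(3)73Ah* on the other strand. *vir*, a partner of Sxl in splicing and of the RNA methylation complex, had 81.3, 70.0 and 76.5 CPM against 87.5, 89.7, 97.5, 87.1 and 87.2 CPM, also without overlap between classes (log2 fold change -0.21), and it overlaps the gene *Mthfs* on the other strand. *Sxl* itself, the master switch, had 184, 234 and 224 CPM against 212, 242, 220, 268 and 237 CPM. The classes overlapped for *Sxl* over both ages, though each age taken alone had roX-high below roX-low, and the log2 fold change was -0.20 (adjusted p = 0.27). The *Sxl* slope in the other libraries was -0.16 per doubling (unadjusted p = 0.0221). Of 11 sex determination genes tested, 5 (*dsx*, *tra*, *vir*, *nito* and *Sxl*) were lower at an unadjusted p under 0.05 and 0 were higher, against 7.41% and 7.2% of all genes. *tra2*, *ix*, *her*, *fl(2)d*, *snf* and *fru* had log2 fold changes between -0.04 and 0.08, and *sisA*, an early X-counting gene, was listed at 0 in all 8 libraries.

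**Figure D3:**
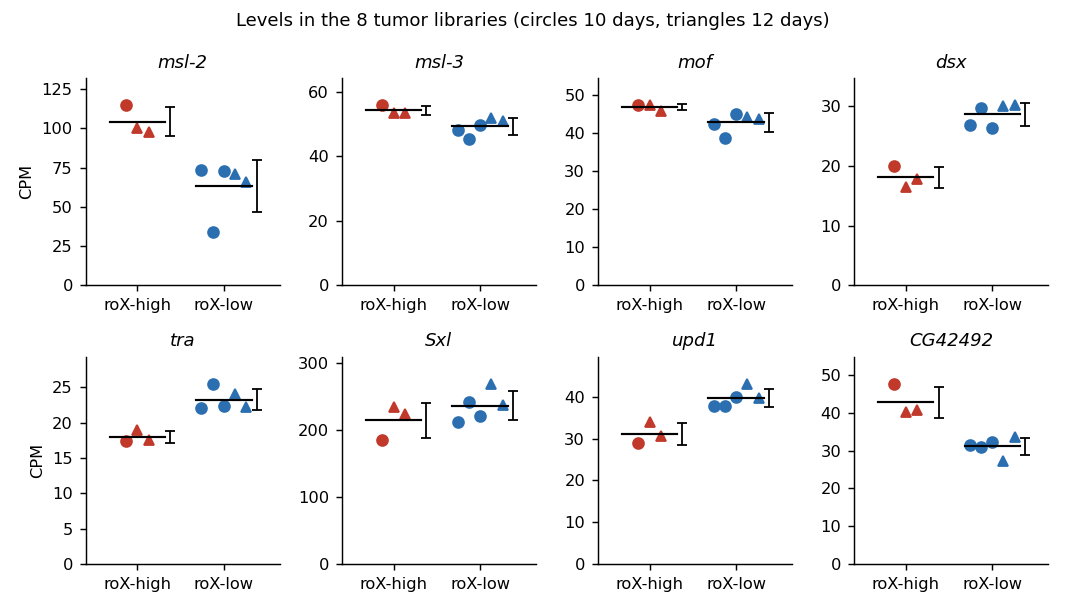
CPM of 8 genes (y axes from 0) in the 3 roX-high tumors and the 5 roX-low tumors, with circles for 10 days and triangles for 12 days. Horizontal bars are class means and error bars are SDs. The classes are apart in every panel but that of *Sxl*, where values of 184 to 234 CPM overlap 212 to 268 CPM.

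Other genes used to tell the sexes apart gave little signal in this tissue. The 113 Y-linked genes listed held 10 to 13 reads per library in roX-high tumors and 4 to 13 in roX-low tumors, and 9 of 12 male fertility genes of the Y had no read in any of the 8 libraries. Their levels cannot separate the classes at this depth. A list of 18 testis genes summed to 18.3 to 23.7 CPM in roX-high tumors and to 20.03 to 22.6 CPM in roX-low tumors, and only 2 of them passed the filter on low values. Of 5 genes known as targets of Dsx elsewhere in the fly, *bab1*, *bab2* and *Yp3* passed the filter and none differed at an unadjusted p under 0.05. *bab2* had 77.1, 67.7 and 113 CPM in roX-high tumors against 96.8, 140, 110, 72.7 and 78.9 CPM in roX-low tumors.

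The X chromosome as a whole took a slightly smaller share of the transcriptome where roX was high. X-linked genes without roX1 and roX2 held 17.20, 16.89 and 17.03% of CPM in roX-high tumors against 17.54, 17.93, 17.50, 17.33 and 17.46% in roX-low tumors. The classes did not overlap, and the highest share belonged to replicate 2 at 10 days. The difference within ages was -0.45 percentage points, with an exact permutation p of 0.0833 (two-sided, smallest possible 0.0417). Against log2 of the roX sum the share fell by 0.21 percentage points per doubling (SE 0.036, n = 8, exact permutation within age, p = 0.00694), and without replicate 2 at 10 days the slope was -0.32. In the other 26 libraries the share had a slope of -0.25 per doubling (SE 0.16, permutation within groups, p = 0.0872, 100000 resamples), negative in 5 of 7 groups and between -0.40 and -0.16 with 1 group left out. Without ribosomal protein genes the share was 17.64 ± 0.09% in roX-high and 18.11 ± 0.22% in roX-low tumors (SD, n = 3 and 5), with a slope of -0.20 (exact permutation, p = 0.0104) and of -0.28 in the other 26 libraries (permutation, p = 0.0342). These summaries were added after the first values were seen.

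Gene by gene, differences of X-linked genes were small and more often negative than positive. Of 1331 X-linked genes tested, 181 were lower in roX-high tumors at an unadjusted p under 0.05 (13.6%) and 79 were higher (5.94%). Among 6403 autosomal genes 391 were lower (6.11%) and 478 higher (7.47%). The median log2 fold change was -0.03 on the X and 0.00 on the autosomes, with quartiles of -0.12 and 0.07 against -0.09 and 0.09. No X-linked gene passed the adjusted threshold in limma (0%) or in edgeR. DESeq2 called 41 of the 1331, against 123 of all 7783 genes. It gave most genes no adjusted p, so these counts are not shares of the genes it adjusted. Leaving out replicate 1 at 12 days left 112 X-linked genes lower (8.41%) and 51 higher (3.83%), and leaving out replicate 3 at 12 days left 114 lower (8.55%) and 64 higher (4.80%). On the autosomes the lean to higher genes turned without replicate 4 at 10 days, with 652 lower and 556 higher. In the other 26 libraries 47 of the 1308 X-linked genes tested in both fits had a negative slope on roX at an unadjusted p under 0.05 (3.59%) and 21 a positive one (1.61%), against 2.33% and 2.03% of the 7654 genes tested in both fits. Scaling by library size alone instead of the deposited factors gave 237 lower and 64 higher X-linked genes, 513 lower and 336 higher autosomal genes, and 759 lower and 403 higher genes in all.

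Genes of the small chromosome 4 were more often higher than lower with the deposited scaling. Of its 67 tested genes 11 were higher in roX-high tumors at an unadjusted p under 0.05 (16.4%) and 2 were lower (2.99%). Over all genes these shares were 7.2% and 7.41%. For 7 of the 67 the roX-high range was wholly above the roX-low range, and for 0 it was wholly below, against 4.11% and 3.75% of all genes. The median log2 fold change on chromosome 4 was 0.03. In the other 26 libraries 2 of 66 genes had a positive slope (3.03%) and 0 a negative one at that p. Over all genes tested in both fits these shares were 2.03% and 2.33%.

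**Figure D4:**
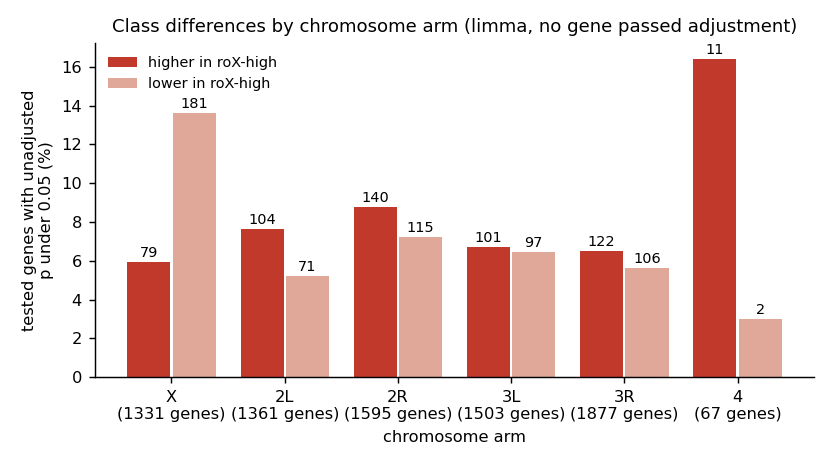
Percent of tested genes (y axis, from 0) higher and lower in roX-high than in roX-low tumors at an unadjusted limma p under 0.05, by chromosome arm (x axis), with gene counts above the bars. On the X 181 genes are lower and 79 higher, while on arms 2L, 2R, 3L and 3R the higher genes outnumber the lower ones with the deposited scaling, though not over all autosomes with library size scaling (336 higher and 513 lower) or without replicate 4 at 10 days (556 and 652).

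The genes with the lowest p among those above in roX-high tumors were, by a rule on p and on equal sign at both ages, *CG6191*, *CG42492*, *RpL34a*, *Adk1* and *RpL39*. *CG6191* had 12.95, 24.9 and 21.8 CPM in roX-high tumors against 7.81, 7.69 and 7.71 CPM at 10 days and 15.8 and 13.2 CPM at 12 days in roX-low tumors. The classes overlapped over both ages and were apart within each age, with a log2 fold change of 0.66 ± 0.09 (SE) and a limma adjusted p of 0.12. The X-linked *CG42492* had 47.6, 40.1 and 40.6 CPM against 31.5, 31.0, 32.3, 27.3 and 33.5 CPM. It did not overlap between classes, with a log2 fold change of 0.48 and an adjusted p of 0.25. *Adk1* had 29.2, 28.9 and 27.6 CPM against 21.995, 21.3, 18.7, 23.3 and 21.4 CPM, a log2 fold change of 0.39. The ribosomal protein genes *RpL34a* and *RpL39* are described with their group below.

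On the lower side the rule named *dsx*, *mei-P26*, *upd1*, *Treh* and *Lsd-2*, of which *mei-P26*, *upd1* and *Lsd-2* are X-linked. *mei-P26*, a growth regulator of the TRIM-NHL family known from the germline, had 58.4, 73.0 and 62.7 CPM in roX-high tumors against 81.2, 85.5, 71.0, 102 and 104 CPM in roX-low tumors. Its ranges overlapped through replicate 3 at 10 days, and the log2 fold change was -0.52 ± 0.08 (SE, limma adjusted p = 0.21, DESeq2 adjusted p = 1.6e-05). *upd1*, a ligand of the JAK/STAT pathway, had 28.8, 34.03 and 30.6 CPM against 37.7, 37.8, 40.0, 43.0 and 39.7 CPM, without overlap (log2 fold change -0.37, adjusted p = 0.25). The related ligands *upd2* and *upd3* showed no such separation, with log2 fold changes of 0.01 and -0.14. *Lsd-2*, a lipid droplet perilipin, had 149, 155 and 179 CPM against 189, 231, 214, 220 and 213 CPM, again without overlap (log2 fold change -0.43, adjusted p = 0.25 by limma and 3.5e-04 by DESeq2). *Treh*, which cleaves the blood sugar trehalose, had 30.5, 38.03 and 42.3 CPM against 47.8, 41.6, 50.2, 52.2 and 52.3 CPM (log2 fold change -0.46), and overlapped through replicate 2 at 10 days. Outside the 8 tumors none of the 9 genes of both directions besides *dsx* had an unadjusted p under 0.05 for its slope on roX.

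*cac* and *Optix* were singled out after their values were seen, as the genes called with *msl-2* in the continuous fit. *cac*, the X-linked gene of a voltage-gated calcium channel subunit, had 21.9, 18.6 and 15.8 CPM in roX-high tumors against 15.4, 7.24, 13.4, 11.6 and 13.3 CPM in roX-low tumors. It rose by 0.37 ± 0.04 (SE) per doubling of roX (limma adjusted p = 0.016), and its slope in the other 26 libraries was 0.38 with an unadjusted p of 0.0516. *Optix*, a homeobox transcription factor gene, had 2.85, 3.54 and 4.67 CPM against 5.08, 11.6, 5.23, 7.498 and 6.77 CPM, with a slope of -0.45 (adjusted p = 0.019). For both the extreme roX-low value was that of replicate 2 at 10 days, and neither was called without it. *cac* also lost its call without replicate 4 at 10 days or replicate 1 at 12 days, and *Optix* kept its call only without replicate 1 at 10 days or replicate 4 at 12 days.

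Genes of the cytosolic ribosome were often on the higher side. This list was put together by gene name after values had been seen, and 80 of its 88 genes passed the filter on low values. Of these, 36 were higher in roX-high tumors at an unadjusted p under 0.05 and 0 were lower, and for 33 the roX-high range lay wholly above the roX-low range, against 7.2% and 4.11% of all genes. The median log2 fold change was 0.13, against 0.00 over all genes. Their summed level was 175820, 199190 and 180770 CPM in roX-high tumors against 169730, 166600, 159420, 169970 and 167400 CPM in roX-low tumors, highest in replicate 1 at 12 days. *RpL39* had 808, 877 and 777 CPM against 678, 667, 648, 685 and 581 CPM, and *RpL34a* 225, 220 and 209 CPM against 194, 170, 193, 162 and 174 CPM. *RpL41* averaged 4173 and 3044 CPM, with the highest fold change of the list (0.42 on the log2 scale). Leaving out 1 library left between 22 and 39 genes of the list higher and 0 lower. There were 22 without replicate 1 and also 22 without replicate 3 at 12 days (against 3.595% and 5.46% of all genes). The 39 were without replicate 4 at 12 days (against 9.07%). Library size scaling gave 30 higher and 1 lower, against 5.18% and 9.75% of all genes. Outside the 8 tumors 0 of 81 ribosomal protein genes had a slope on roX with an unadjusted p under 0.05, against 4.27% of all genes. Their median slope was -0.03. Near-identical pairs such as *RpS14a* and *RpS14b* may share reads, so their single values are uncertain, and *RpL39* overlaps *RpL12* on the other strand.

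Muscle genes were also higher in the roX-high class. Of 10 larval muscle markers, 7 were higher at an unadjusted p under 0.05 (70%) and 0 were lower, against 7.2% and 7.41% of all genes. Their median log2 fold change was 0.49. *Mhc*, the muscle myosin heavy chain, had 32.6, 29.4 and 39.7 CPM in roX-high tumors against 27.0, 12.5, 20.1, 20.4 and 22.3 CPM in roX-low tumors. *wupA*, the troponin I gene, had 5.32, 6.79 and 8.09 CPM against 4.73, 3.14, 4.46, 3.45 and 3.51 CPM. *Prm*, which encodes paramyosin, had 13.4, 13.6 and 15.9 CPM against 12.5, 6.83, 10.6, 8.06 and 13.2 CPM. For these 3 genes and for *Mlc1* and *bt* the classes did not overlap, although *Prm* was barely apart. Over all genes the roX-high range was wholly above for 4.11%. In bulk libraries fewer cells of a type and less RNA per cell cannot be told apart. The list sum, carried by the broadly expressed *Tm1*, was 1057 to 1255 CPM against 886 to 1186 CPM. With 1 library left out between 2 and 7 members were higher, against 3.595% to 9.07% of all genes. There were 2 without replicate 4 at 12 days (against 9.07%) and 3 without replicate 2 at 12 days (against 4.49%). Leaving out any 1 of replicates 2 and 4 at 10 days and 1 and 3 at 12 days gave 4 (against 3.595% to 8.32%). In the other 26 libraries 0 of 10 had a slope with an unadjusted p under 0.05, against 4.27% of all genes. The 7 adult muscle precursor markers had a median log2 fold change of 0.02, and 1 of them was higher.

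**Figure D5:**
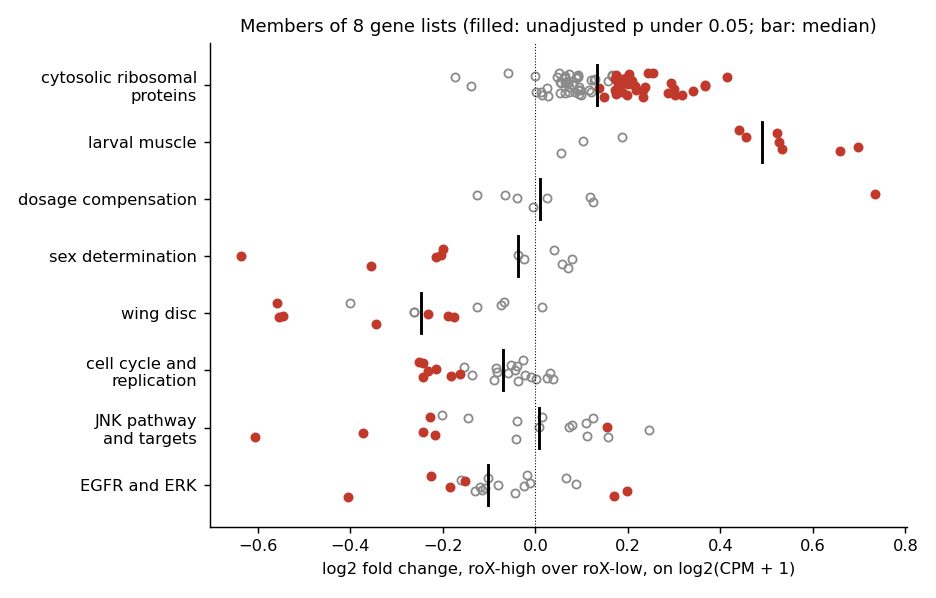
Log2 fold change, roX-high over roX-low (x axis, on log2(CPM + 1)), of each tested member of 8 gene lists (rows). Filled points have an unadjusted limma p under 0.05 and bars are medians, at 0.13 for ribosomal protein genes, 0.49 for larval muscle and -0.25 for wing disc genes.

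Regulators of wing disc identity leaned lower in the roX-high class. Of the 14 wing disc markers 7 were lower at an unadjusted p under 0.05 and 0 were higher, against 7.41% and 7.2% of all genes. Their median log2 fold change was -0.25, but for none were the ranges apart. *Dll*, a homeobox gene of the distal appendage, had 22.3, 15.2 and 25.9 CPM in roX-high tumors against 29.1, 31.0, 23.6, 33.2 and 35.2 CPM in roX-low tumors, and *rn*, a zinc finger gene of the wing pouch, had 87.8, 69.6 and 97.7 CPM against 85.3, 107, 78.5, 160 and 157 CPM. For *rn* the difference lay in the 12-day tumors. Replicate 1 at 12 days had the lowest value of the 8 for *Dll*, *rn*, *pdm2*, *vg*, *nub* and *zfh2*. Without that tumor 2 of the 14 were lower (14.3%, against 3.56% of all genes), and without the roX-low replicate 3 at 12 days also 2 (against 4.09%). Outside the 8 tumors 0 of 14 had a slope with an unadjusted p under 0.05, against 4.27% of all genes.

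Cell cycle and replication genes showed a weaker lean to the same side. Of 24 tested, 7 were lower in roX-high tumors at an unadjusted p under 0.05 and 0 were higher, against 7.41% and 7.2% of all genes. The median log2 fold change was -0.07. The lower genes were *CycB*, *dup*, *CycE*, *stg*, *RnrL*, *Mcm6* and *Mcm7*. *CycB*, the mitotic cyclin, had 178, 161 and 185 CPM in roX-high tumors against 198, 196, 219, 209 and 211 CPM in roX-low tumors, and *dup*, the replication licensing factor Cdt1, had 77.2, 64.3 and 68.2 CPM against 82.1, 82.9, 85.1, 80.9 and 89.5 CPM. Both were without overlap, with log2 fold changes of -0.24 and -0.25. *PCNA* averaged 260 and 274 CPM and *Cdk1* 94.3 and 96.7 CPM. Leaving out replicate 1 or replicate 3 at 12 days left 3 lower genes in either case (12.5%, against 3.56% and 4.09% of all genes). Leaving out replicate 2 at 12 days left 4 (16.7%, against 4.73%), and leaving out replicate 4 at 10 days gave 11 (45.8%, against 11.3%). In the other libraries 1 of 24 had a positive slope and 0 a negative one at that p, against 1.98% and 2.29% of all genes.

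Of the genes that report the JNK pathway in *scrib* tumors, *Mmp1*, a matrix metalloproteinase and JNK target, had 387, 402 and 423 CPM in roX-high tumors against 408, 498, 442, 309 and 301 CPM in roX-low tumors. *puc*, the JNK phosphatase and target, had 138, 183 and 158 CPM against 148, 151, 143, 140 and 139 CPM. Their log2 fold changes of 0.16 and 0.13 had limma adjusted p of 0.56 and 0.50, and they pool ages of opposite sign. At 10 days the differences were -0.21 for *Mmp1* and -0.09 for *puc*, and at 12 days 0.43 and 0.29, where both roX-high tumors were above both roX-low tumors for either gene. Of 19 JNK pathway genes 1 was higher at an unadjusted p under 0.05, the kinase *bsk* (65.0, 65.8 and 71.3 CPM against 63.0, 61.3, 62.6, 57.5 and 59.4 CPM), and 5 were lower, *upd1*, *hep*, *hid*, *wgn* and *Ilp8*. These were 5.26% and 26.3% of the list, against 7.2% and 7.41% of all genes. The X-linked JNK kinase *hep* had 135, 128.3 and 135 CPM against 141, 160, 160, 157 and 165 CPM, without overlap. Of the 5 lower genes *upd1*, *hep* and *wgn* are X-linked, and *hid* and *Ilp8* lie on 3L. Without replicate 4 at 10 days 5 of the 19 were higher and 4 lower (against 8.32% and 11.3% of all genes). Leaving out replicate 1 or replicate 2 at 12 days gave 1 higher and 3 lower. The shares of all genes were then 3.595% and 3.56% without replicate 1, and 4.49% and 4.73% without replicate 2.

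On the EGFR side, *vn*, a ligand of the receptor, had 65.8, 63.3 and 65.9 CPM in roX-high tumors against 82.4, 60.7, 89.9, 99.2 and 90.3 CPM in roX-low tumors. Its log2 fold change was -0.40 ± 0.13 (SE, adjusted p = 0.26 by limma and 0.033 by DESeq2), and the overlap came from replicate 2 at 10 days alone. That tumor had the least roX and also the lowest *vn*. Over the roX-high and roX-low tumors together, *vn* had a slope of -0.018 ± 0.079 (SE) per doubling of roX (limma unadjusted p = 0.83). The class difference of *vn* was thus not seen on the continuous scale. The ERK targets *kek1*, *sty* and *aos* averaged 102, 195 and 31.1 CPM in roX-high tumors against 114, 209 and 30.5 CPM in roX-low tumors. Of 19 genes of the pathway 2 were higher, the kinase *rl* (ERK) and the ligand *spi*, and 4 lower, *vn*, *pnt*, *kek1* and the X-linked kinase *Raf*. These were 10.5% and 21.1% of the list, against 7.2% and 7.41% of all genes. The lower count was unsteady, with 1 lower gene left without replicate 3 at 10 days or without replicate 1, 2 or 3 at 12 days (5.26%, against 3.56% to 6.06% of all genes). *scrib* itself averaged 700 and 731 CPM, a log2 fold change of -0.07. For *vn* the slope on roX in the other 26 libraries was 0.16 (unadjusted p = 0.394).

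Ecdysone genes were variable within both classes. Of 15 tested, 14 had a negative log2 fold change but only *br* had an unadjusted p under 0.05 (6.67%, against 7.41% of all genes lower). *br*, an X-linked zinc finger gene of the early ecdysone response, had 738, 669 and 920 CPM against 1003, 1109, 1000, 892 and 924 CPM (log2 fold change -0.33). Without replicate 4 at 12 days 6 genes of the list were lower at that p (against 8.81% of all genes), and without replicate 4 at 10 days 0 were (against 11.3%). The early gene *Eip78C* stood at 0.19, 0.15 and 4.02 CPM in roX-high tumors against 1.34, 11.7, 1.78, 3.49 and 0.49 CPM in roX-low tumors, and *Hr4*, also X-linked, at 1.40, 1.62 and 16.3 CPM against 3.98, 43.3, 1.98, 5.78 and 1.23 CPM. Replicate 4 at 12 days and replicate 2 at 10 days were thus the high tumors of their classes for both genes, and *ImpE1*, *ImpE2* and *ImpE3* had the same 2 high tumors. Heat shock genes had a median log2 fold change of -0.20, with 0 of 15 past an unadjusted p of 0.05.

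Markers of other tissues set 1 roX-low tumor apart. The 20 listed gut genes, which encode digestive proteases, lysozymes, amylases and maltases, summed to 592 CPM in replicate 1 at 10 days, against 25.3, 7.85 and 13.2 CPM in roX-high tumors and 11.4 to 16.8 CPM in the other roX-low tumors. The same tumor had the highest fat body sum, 437 CPM, against 12.7 to 86.5 CPM in roX-high tumors and 21.9 to 148 CPM in the other roX-low tumors. Without it limma still called 0 genes between the classes, with 1201 at an unadjusted p under 0.05. Hemocyte markers summed to 138 to 186 CPM in roX-high and 130 to 202 CPM in roX-low tumors, and tracheal markers to 5634 to 6652 CPM and 4828 to 5835 CPM. The part of these cells in the class differences was not tested.

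Age entered every class fit, and it was itself confounded with the roX level in part, since 2 of 4 tumors at 12 days but 1 of 4 at 10 days were roX-high. With the class in the model, limma called 1 gene between 12 and 10 days (0.0128%), *CG6191*, with a log2 fold change of 0.82 (12 over 10 days, adjusted p = 0.024). At an unadjusted p under 0.05, 1205 genes differed by age (15.5%). Without the class 0 genes were called. The class difference itself was not shown to depend on age. The interaction of class and age called 0 of 7783 genes in limma, with 735 at an unadjusted p under 0.05 (9.44%), and it rests on a single roX-high tumor at 10 days. Without replicate 1 at 12 days, 19 genes passed the interaction.

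The 26 libraries outside the classes gave no gene past the threshold for an association with roX within their groups by limma or by edgeR, with 341 of 7980 genes at an unadjusted p under 0.05 (4.27%, with a positive slope for 1.98% and a negative one for 2.29%) and 320 by edgeR. Within those groups the roX range was narrow below 14 days. Ranked by likeness to log2 roX over the 26 libraries after removing group means, among 6287 genes averaging 10 CPM or more, the highest Pearson correlations were those of *wek* (0.81), *CG31368* (0.74), *CG33158* (0.68), *Nup93-2* (0.67) and *CG7504* (0.66). The lowest were *GIIIspla2* (-0.70), *ade5* (-0.65), *CG6617* (-0.63), *Prp31* (-0.62) and *CR42491* (-0.62). These points share library depth and composition, and the values are a description. *GIIIspla2*, *ade5*, *CG6617* and *CR42491* are X-linked, and none of the 5 most alike are. In the late tumors *wek* had 28.5, 27.8 and 24.9 CPM in the roX-high class against 25.0, 26.2, 28.1, 28.2 and 27.9 CPM in the roX-low class, so its likeness was not seen there. *ade5*, a purine synthesis gene, had 126, 117 and 105 CPM against 142, 146, 132, 155 and 156 CPM, without overlap (log2 fold change -0.35, limma adjusted p = 0.25). *CR42491*, which overlaps *RpL22*, had 92.8, 89.6 and 99.1 CPM against 120, 120, 114, 101 and 104 CPM, also apart.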

How the data were processed

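The authors aligned paired-end reads to BDGP6 (STAR), assigned them to genes by featureCounts at default settings, which ignore strand, and deposited CPM made with edgeR. In 20 of the 34 libraries the deposited values sum to more than plain CPM can, so they were recorded as a signal, scaled by the authors in the same way, and used as CPM. Dividing by the value of 1 read gave whole reads for 100% of values (tolerance 0.01), and edgeR on these reads called 0 genes between the classes. Genes were matched by symbol to an Ensembl annotation of BDGP6 (17493 of 17641 symbols), whose release may differ from the authors'.

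The 8 libraries were classed at a roX1 and roX2 sum of 500 CPM. Tests were run in R 4.3.3 with limma 3.58.1 (log2(CPM + 1), mean of at least 1 CPM, empirical Bayes with intensity trend, age as covariate) and Benjamini-Hochberg adjustment over all genes at 0.05. A fold change on this scale understates changes of low genes. edgeR 4.0.16 and DESeq2 1.42.0 on recovered reads were alternatives, with other filters, pseudocounts and scalings, roX as a continuous term, each age alone and each library left out. The other 26 libraries were fitted with group as a factor. Each fit was checked on simulated data. Genes named were the dosage compensation and sex determination lists, the study's reporter genes, the 5 lowest p in each direction with equal sign at both ages and a mean of at least 10 CPM, the 5 most and least like roX in the other libraries, and the extremes of each list. Further members, and *cac* and *Optix*, were named after their values were seen. The members and lists were chosen with earlier results of these data known. Replicate pairs within an age differed by more than sampling noise (chi-square per gene 14.5 to 41.6), so none was counted as a duplicate. Depth was 18437402 to 26619424 reads on genes over the series, and intervals from it would cover counting error only.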

Additional observations from a re-analysis of the deposited data

Results flagged for a closer look

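Among 130 checks of a library that stands apart from the other 3 of its age (Dixon's test at the 95% level, over named genes, list sums, the roX sum and the X-linked share), 7 did, and chance flags about 1 in 20 groups. Gut markers summed to 592.2 CPM in replicate 1 at 10 days (roX-low), against 12.18 to 25.33 CPM in the other 3. The roX-high tumor at 10 days, replicate 4, stood above the other 3 of that age for *CG6191* (12.95 CPM against 7.693 to 7.813 CPM), *CG42492* (47.56 CPM against 30.97 to 32.26 CPM) and *her* (30.16 CPM against 27.6 to 27.68 CPM). *CG6191* and *CG42492* had been named for a low p between the classes, with equal sign at both ages. Replicate 4 is the whole roX-high class at 10 days, so the flags of both genes follow in part from that choice. Replicate 1 at 12 days (roX-high) was lowest for *JIL-1* (87.25 CPM against 109.6 to 113.4 CPM) and highest for the sum of mitochondrial ribosomal protein genes (2222 CPM against 1956 to 1979 CPM). Replicate 2 at 12 days (roX-low) was lowest for *ix* (10.06 CPM against 11.81 to 12.15 CPM).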

How the results depend on the processing

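The count of genes between roX-high and roX-low tumors stayed at 0 with a pseudocount of 0.1, without the filter, with a mean of at least 10 CPM, with edgeR, with both other scalings, without the age term and at 12 days alone. It was 123 (41 X-linked) with DESeq2, 3 (1 X-linked) with continuous roX and 3 at 10 days alone, where the roX-high arm is 1 library that is assumed to vary like the others. With 1 library left out it ran from 0 to 19 (0 to 3 X-linked), with 19 without replicate 4 and 0 without replicate 1 at 12 days, and in the continuous fit from 0 to 4 (0 to 1 X-linked), with 2 without replicate 3 or 4 at 10 days or replicate 3 at 12 days and 1 without replicate 1 at 12 days. The cause was not tested. *msl-2* kept its direction in every setting run, with a log2 fold change of 0.53 to 0.81 and adjusted p of 0.044 to 0.69 when 1 library was left out, and a slope of 0.4355 in the continuous fit (with 1 left out, 0.4462, 0.4491, 0.4362 and 0.3978 without replicates 1 to 4 at 10 days and 0.4462, 0.4437, 0.4325 and 0.4332 without replicates 1 to 4 at 12 days). The count between 12 and 10 days was 6 with a pseudocount of 0.1, 0 without the class and 0 to 29 with 1 library left out, with 29 without replicate 4 at 12 days. The interaction gave 0 to 19. No count in the other 26 libraries left 0. Of 79 other named genes, 41 had another sign in at least 1 of 29 settings, no called value changed sign, and 15 were called in at least 1 setting.

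Replicate numbers did not pair the ages: the deviations of tumors with the same number had correlations of -0.05, -0.00, -0.07 and -0.34. Replicates 2 and 3 were roX-low at both ages and replicate 4 was roX-high at both. With a replicate block the class term therefore rests on replicate 1 alone, roX-low at 10 days and roX-high at 12 days. Its 10-day library had the gut marker sum of 592 CPM. The class values of this fit thus cannot compare the roX-high and roX-low tumors as a whole. A replicate block gave 22 genes (4 X-linked), with the lowest adjusted p for the gut protease genes *Jon65Aiv* and *Jon65Aiii*, 0 genes between ages, and a log2 fold change of 0.21 for *msl-2* (adjusted p = 0.95). The split into higher and lower genes at an unadjusted p under 0.05 was 560 and 577 as deposited and 403 and 759 with library size scaling.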
